A study of Mus musculus with 5 samples.

Results

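Coagulation and plasminogen activation were followed through 9 genes: F3, F5, F7, F10, F13a1, Thbd, Plau, Plaur and Serpinb2. They were chosen by name, as every spot that is no control and whose transcript accession belongs to 1 of these genes. This gave 13 probes for 9 of the 21154 gene symbols on the array, and F3, F5, F7 and F13a1 had a pair of probes each. RNA came from adherent peritoneal macrophages of mice aged 8 weeks, plated overnight after lavage, and was measured on 1-colour Agilent arrays. There were 2 arrays of c-JunΔLysM mice, numbered 1 and 9, and 3 arrays of wild-type littermates, numbered 5, 11 and 14. The c-JunΔLysM mice are labelled cJunfl/fl LysMCre-/+, so that Cre recombinase, driven from the lysozyme M gene of myeloid cells, removes floxed Jun. In the source names the deletion is written ΔMx instead, while titles and genotypes name LysM. All mice were of a mixed 129/C57Bl6 background and of either sex, and whether wild-type littermates carried floxed alleles or Cre was not given. Each array was taken as 1 numbered mouse. If arrays shared an animal, the p-values measure technical spread alone.

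Blood clotting starts when tissue factor, the membrane protein encoded by F3, binds factor VII (F7) and the pair activates factor X (F10). Factor X with its cofactor, factor V (F5), makes thrombin, thrombin makes fibrin, and factor XIII, whose catalytic subunit is encoded by F13a1, cross-links it. Thrombomodulin (Thbd) diverts thrombin toward activation of protein C, which inactivates factor V. In the opposing branch urokinase (Plau), held at the cell by its receptor (Plaur), turns plasminogen into the fibrin-cleaving plasmin, and Serpinb2 encodes an inhibitor of urokinase. Most clotting factors are made in the liver, but macrophages make several of these proteins themselves, and resident macrophages of the mouse peritoneum are known for expressing F5 and F10.

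c-Jun is a subunit of AP-1, a dimeric transcription factor that binds the heptamer TGANTCA, or with ATF partners the octamer TGACGTCA. Promoter windows from RefSeq (GRCm38.p6), 250 bases before to 50 after an annotated start site, were at hand for 7 of the 9 genes, and not for Thbd and Plau. TGANTCA occurred on either strand in the windows of 3 of the 7 genes, F3, Plaur and Serpinb2, and in 7.81% of all 32851 windows. That share is counted per window and not per gene, and Serpinb2 and F13a1 have a pair of windows each, so the units differ. The F3 window held 2 matches, as did 0.46% of all windows when 2 or more were counted. TGACGTCA was in none of the 7 genes' windows and in 1.79% of all windows. The heptamer pattern is its own reverse complement, and no heptamer match can lie inside an octamer match. The windows with a match are given because they show where these letters lie relative to the start site, with the matched letters in capitals. A match is a run of letters and shows no binding.
F3, chr3:121723287-121723586, plus strand, matches beginning at -146 and -135 from the start: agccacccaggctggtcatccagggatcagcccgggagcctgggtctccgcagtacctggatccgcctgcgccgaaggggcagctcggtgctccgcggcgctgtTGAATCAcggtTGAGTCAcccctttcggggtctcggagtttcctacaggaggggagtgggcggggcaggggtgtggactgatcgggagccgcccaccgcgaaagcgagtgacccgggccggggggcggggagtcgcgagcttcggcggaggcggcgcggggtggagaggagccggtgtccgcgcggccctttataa
Plaur, chr7:24462233-24462532, plus strand, match beginning at -69 from the start: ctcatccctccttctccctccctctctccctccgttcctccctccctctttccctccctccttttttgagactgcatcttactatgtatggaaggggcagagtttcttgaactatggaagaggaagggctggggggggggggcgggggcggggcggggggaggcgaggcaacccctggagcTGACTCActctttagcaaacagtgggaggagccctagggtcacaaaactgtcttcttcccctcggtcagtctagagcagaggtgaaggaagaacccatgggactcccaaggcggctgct
Serpinb2, chr1:107511173-107511472, plus strand, match beginning at -94 from the start: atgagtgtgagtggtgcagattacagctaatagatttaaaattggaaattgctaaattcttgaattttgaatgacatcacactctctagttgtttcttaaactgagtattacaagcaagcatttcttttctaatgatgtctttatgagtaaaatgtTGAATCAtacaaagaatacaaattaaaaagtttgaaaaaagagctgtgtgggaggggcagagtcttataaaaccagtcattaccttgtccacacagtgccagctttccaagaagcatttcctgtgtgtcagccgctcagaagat
The second annotated start site of Serpinb2 has the same match, and the pair of F13a1 windows and the single windows of F5, F7 and F10 held none.

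Values are log2 of the processed signal over the 75th percentile of the same array, so that 0 is the signal at that percentile. That percentile lay at intensities of 596 and 437 on the c-JunΔLysM arrays and from 456 to 482 on the wild-type arrays. With 5 arrays, precision is limited throughout. Jun itself was at 2.76 and 2.71 in c-JunΔLysM macrophages, against 3.21, 3.75 and 3.17 in wild-type ones (log2 difference -0.64, SE 0.23, limma adjusted p = 0.391), and where its probe lies relative to the floxed part is not known here. Lyz2, the gene that carries Cre in LysM-Cre mice, was at 4.46 and 8.52 in c-JunΔLysM macrophages, against 8.70, 8.76 and 9.18 in wild-type ones, so c-JunΔLysM 1 was far below c-JunΔLysM 9. All 8 macrophage markers and all 11 markers of large peritoneal macrophages were above background on every array. The arrays lay on 2 slides: slide 1 held c-JunΔLysM 1 and wild-type 5, and slide 2 held c-JunΔLysM 9, wild-type 11 and wild-type 14. Wild-type 11 stood apart from the others. The Y-linked transcripts Ddx3y (1.35), Eif2s3y (3.27) and Kdm5d were above background on it alone, and Uty on it (-2.06) and on wild-type 14 (-3.97). Xist was at -4.53 on wild-type 11, against -0.04 to 0.74 on the other arrays. By Xist, Ddx3y and Eif2s3y wild-type 11 alone reads as male, so sex was uneven between the groups, and its part was not tested. Gata6, the transcription factor of resident peritoneal macrophages, was at -1.07 on wild-type 11. It was at 1.48 and 2.08 on the c-JunΔLysM arrays and at 1.81 and 1.29 on the other wild-type arrays. Differences of the 9 genes are therefore also given without wild-type 11, as are those of other pathway genes and list medians that it moved most.

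For none of the 9 genes was the difference between genotypes large enough, against the spread between arrays, to pass limma's test. In limma's fit over all 27938 genes tested, 0 of the 9 had a Benjamini-Hochberg adjusted p below 0.05, as was the case for 0% of all genes, and 0 of the 9 had an unadjusted p below 0.05, against 12.2% of all genes, 6.53% lower and 5.63% higher. Over all genes that was 1823 lower and 1572 higher, a split that turned to 1302 lower and 2125 higher with quantile normalization and to 697 lower and 2618 higher with median centring. All 13 probes were above background on all 5 arrays, so none of the 9 genes was lost to the filter on dim probes. In c-JunΔLysM macrophages 4 genes were higher (Serpinb2, F5, Thbd and F7) and 5 were lower (F3, Plau, F10, Plaur and F13a1), against 38.6% of all genes higher and 61.4% lower. The median difference of the 9 genes was -0.10, beside -0.09 over all genes tested. Of the 9 genes 1, Plau, had groups that did not overlap, as had 33.5% of all genes. An exact permutation test of 2 against 3 arrays can give no p below 0.1, so none was run on single genes.

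**Figure D1:**
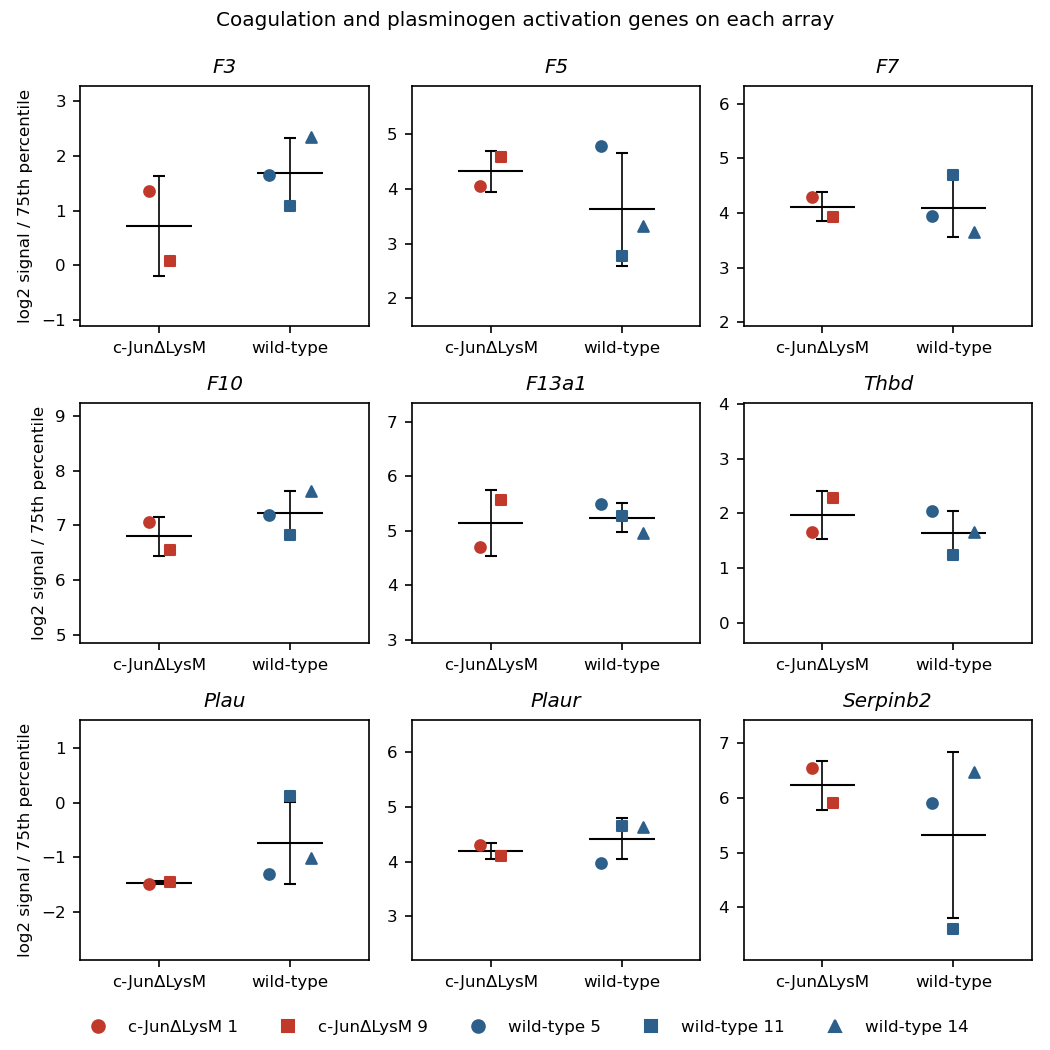
Level of each of the 9 genes on every array, as log2 of the signal over the array's 75th percentile. Points are arrays, horizontal lines are group means and bars are 1 SD (n = 2 c-JunΔLysM, n = 3 wild-type). Each panel spans the same number of log2 units, and Plau alone has both c-JunΔLysM points below all wild-type points.

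Of the initiating pair, F3 averaged 0.72 ± 0.91 in c-JunΔLysM macrophages (SD, n = 2) and 1.70 ± 0.63 in wild-type ones (SD, n = 3), while F7 averaged 4.11 ± 0.26 in c-JunΔLysM and 4.09 ± 0.54 in wild-type macrophages. Neither gene passed limma's test. F3 was at 1.36 and 0.08 in c-JunΔLysM macrophages, against 1.65, 1.09 and 2.35 in wild-type ones. The level of c-JunΔLysM 9 was the lowest of the 5, 2.02-fold below the next, while c-JunΔLysM 1 lay within the wild-type range, so the groups overlapped. The difference was -0.98 (SE 0.55, 95% interval -2.40 to 0.44, limma adjusted p = 0.507). It was -0.33 without c-JunΔLysM 9, -1.62 without c-JunΔLysM 1 and -0.65 without wild-type 14. Within slide 1 it was -0.28 and within slide 2 it was -1.65, so its direction was the same on both slides. F7 was at 4.30 and 3.93 in c-JunΔLysM macrophages, against 3.94, 4.69 and 3.64 in wild-type ones. The c-JunΔLysM values lay inside the wild-type range, and the difference was 0.02 (SE 0.36, 95% interval -0.92 to 0.96, limma adjusted p = 0.985). That interval leaves room for a change of either sign of up to about 1 log2 unit. The F7 difference was 0.36 within slide 1 and -0.24 within slide 2.

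F10 averaged 6.80 ± 0.36 in c-JunΔLysM macrophages (SD, n = 2) and 7.22 ± 0.41 in wild-type ones (SD, n = 3), while its cofactor gene F5 averaged 4.32 ± 0.37 in c-JunΔLysM and 3.62 ± 1.04 in wild-type macrophages. Neither passed the test. F10, which lies next to F7 in the RefSeq gene order of GRCm38.p6, was at 7.06 and 6.55 in c-JunΔLysM macrophages, against 7.196, 6.83 and 7.64 in wild-type ones. With c-JunΔLysM 9 lowest, the F10 difference was -0.42 (SE 0.31, 95% interval -1.23 to 0.39, limma adjusted p = 0.598). The arrays stood in the same order for F10 as for F3. From the lowest this was c-JunΔLysM 9, wild-type 11, c-JunΔLysM 1, wild-type 5 and wild-type 14. How many other pairs of genes share an order of arrays was not counted. F10 differed by -0.16 without c-JunΔLysM 9, and by -0.14 within slide 1 and -0.68 within slide 2. F5 was at 4.06 and 4.59 in c-JunΔLysM macrophages, against 4.78, 2.77 and 3.32 in wild-type ones. Wild-type 5 was highest of all and wild-type 11 lowest, so the wild-type arrays enclosed both c-JunΔLysM arrays. The F5 difference was 0.70 (SE 0.65, 95% interval -0.98 to 2.38, limma adjusted p = 0.671). It was 0.27 without wild-type 11, 1.28 without wild-type 5 and 0.097 with array weights. Within slide 1 it was -0.73 and within slide 2 it was 1.54, so the slides gave opposite directions.

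F13a1, which acts on fibrin, and Thbd, which acts on thrombin, differed by less than 1 SD of their wild-type arrays. The same held for F5, F7, Plau, Plaur and Serpinb2, but not for F3 and F10. F13a1 was at 4.71 and 5.57 in c-JunΔLysM macrophages, which are the lowest and the highest of the 5 values, against 5.48, 5.27 and 4.96 in wild-type ones. The difference was -0.10 (SE 0.32, 95% interval -0.94 to 0.74, limma adjusted p = 0.917), with -0.77 within slide 1 and 0.45 within slide 2. Its sign was reversed by quantile normalization (0.04) and by median centring (0.11). Thbd was at 1.65 and 2.27 in c-JunΔLysM macrophages, against 2.04, 1.23 and 1.66 in wild-type ones. c-JunΔLysM 9 was the highest array and c-JunΔLysM 1 lay between the wild-type ones. The Thbd difference was 0.32 (SE 0.33, 95% interval -0.53 to 1.17, limma adjusted p = 0.699), with 0.0091 without c-JunΔLysM 9. It was -0.39 within slide 1 and 0.83 within slide 2.

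Urokinase was the 1 gene of the 9 whose groups lay apart, with averages of -1.47 ± 0.03 in c-JunΔLysM macrophages (SD, n = 2) and -0.73 ± 0.75 in wild-type ones (SD, n = 3). Plau was at -1.48 and -1.45 in c-JunΔLysM macrophages, against -1.31, 0.12 and -1.005 in wild-type ones. Both c-JunΔLysM arrays lay just below wild-type 5, and wild-type 11 stood 2.17-fold above the next array. The difference was -0.73 (SE 0.46, 95% interval -1.93 to 0.46, limma adjusted p = 0.546), and both c-JunΔLysM arrays lay below the wild-type arrays, as they did for 20.2% of all genes. Without wild-type 11 the Plau difference was -0.31 (limma adjusted p = 0.458). It was -0.18 within slide 1 and -1.004 within slide 2. Plaur, the urokinase receptor, was at 4.30 and 4.10 in c-JunΔLysM macrophages, against 3.98, 4.65 and 4.63 in wild-type ones. Both c-JunΔLysM arrays lay between wild-type 5 and the other wild-type arrays (difference -0.22, SE 0.26, 95% interval -0.91 to 0.47, limma adjusted p = 0.744). Within slide 1 the Plaur difference was 0.32 and within slide 2 it was -0.54. With array weights it was -0.0033.

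Serpinb2, the urokinase inhibitor known as PAI-2, had the widest spread of the 9 genes, averaging 6.23 ± 0.45 in c-JunΔLysM macrophages (SD, n = 2) and 5.33 ± 1.52 in wild-type ones (SD, n = 3). It was at 6.54 and 5.91 in c-JunΔLysM macrophages, against 5.91, 3.60 and 6.47 in wild-type ones. Wild-type 11 stood 4.95-fold below the next array, and the other 4 arrays lay between 5.91 and 6.54. The difference was 0.90 (SE 0.92, 95% interval -1.50 to 3.30, limma adjusted p = 0.701). Without wild-type 11 it was 0.04 (limma adjusted p = 0.962), and it was 0.63 within slide 1 and 0.88 within slide 2, which holds wild-type 11. For the genes not yet given without wild-type 11, the differences were -1.28 for F3, 0.32 for F7, -0.61 for F10, -0.08 for F13a1, 0.11 for Thbd and -0.11 for Plaur, with limma adjusted p from 0.361 (F3) to 0.927 (F13a1).

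**Figure D2:**
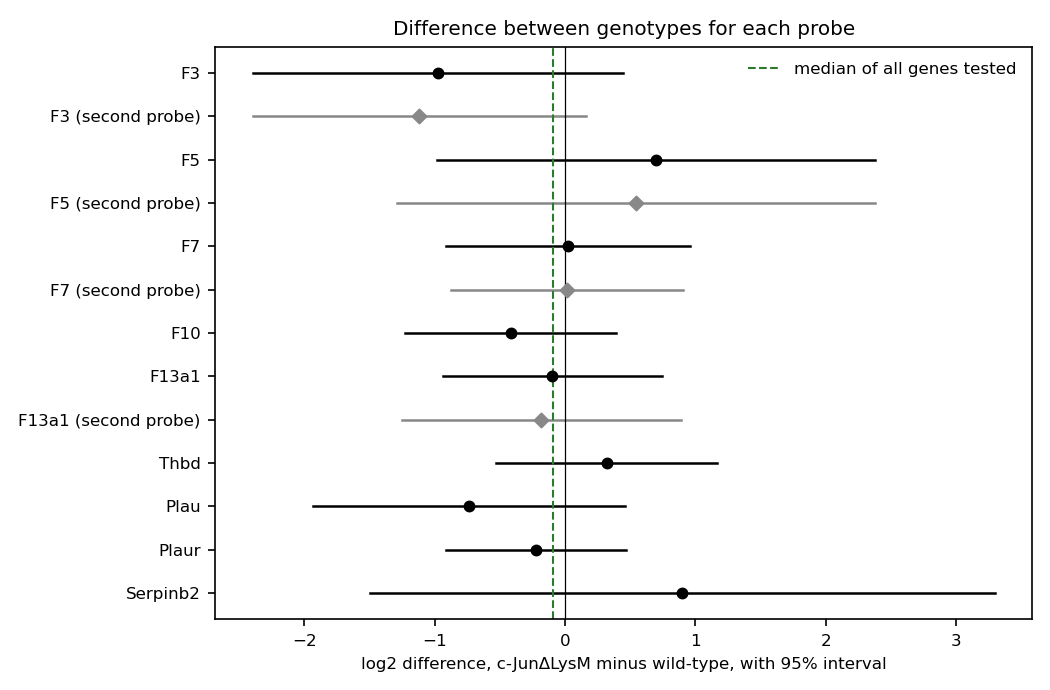
Log2 difference between genotypes, c-JunΔLysM minus wild-type, for each of the 13 probes, with 95% intervals from limma. Black circles are the brighter probe of each gene, grey diamonds are second probes, and the dashed line is the median of all genes tested (-0.09). Every interval includes 0.

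The pairs of probes gave the same picture for all 4 genes that had them. In a fit over all probes the brighter and the second probe differed between genotypes by -0.98 and -1.12 for F3, by 0.70 and 0.55 for F5, by 0.02 and 0.02 for F7 and by -0.10 and -0.18 for F13a1. For each of the 4 genes the 5 arrays stood in the same order on both probes. Taken from each probe's own mean, the values of an array differed between probes by at most 0.20 for F3, 0.17 for F5, 0.06 for F7 and 0.21 for F13a1. The array-to-array differences of these genes, up to 2.28 for F3 and 2.02 for F5, were measured alike by separate probes. The adjusted p over all probes was 0.435 for the second probe of F3 and above that for the other second probes.

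The spread among wild-type arrays was above that of a typical gene for all 9 genes. The wild-type SD was 1.52 for Serpinb2, 1.04 for F5, 0.75 for Plau and 0.63 for F3, beside a median of 0.24 over all genes tested. Only 2.61% of all genes had a larger wild-type SD than Serpinb2, and 7.55% had a larger one than F5. F13a1 was the steadiest, with a wild-type SD of 0.26, and Plaur (0.38), Thbd (0.40), F10 (0.41) and F7 (0.54) lay between.

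**Figure D3:**
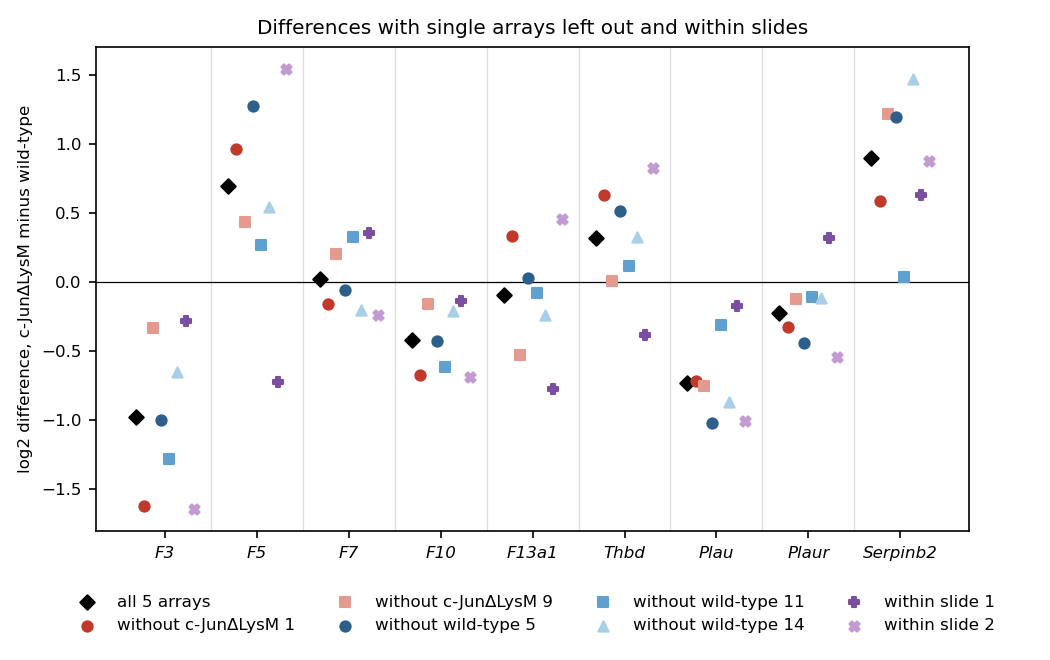
Log2 difference of each gene, c-JunΔLysM minus wild-type, with all 5 arrays (black diamonds), with each array left out, and within each slide. The Serpinb2 difference is 0.04 without wild-type 11, and the F5, Thbd, Plaur, F7 and F13a1 points of the slides lie on opposite sides of 0.

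Marker lists of other cells and of macrophage subsets also differed between the arrays, and their part in the values above was not tested. The general macrophage list had medians of -0.26 and -0.36 relative to the wild-type mean on the c-JunΔLysM arrays, and of 0.05, -0.09 and 0.14 on wild-type 5, 11 and 14. It summed to 951 and 1087 times the 75th percentile in c-JunΔLysM macrophages and to between 1229 and 1655 in wild-type ones. Without Csf1r, its brightest marker, sums overlapped: 551 and 824 in c-JunΔLysM macrophages, against 1001, 805 and 1130 on wild-type 5, 11 and 14. Lyz2, the gene that carries Cre, belongs to this list, and sums without it were not computed. Of its 8 markers 4, Lyz2 among them, were lower without overlap and 2 were higher, beside 20.2% and 13.3% of all genes. Sums kept spots with an outlier flag, so that each array summed the same probes. In a bulk sample fewer cells of a type and less RNA per cell cannot be told apart. Large peritoneal macrophage markers had summed signals of 372 and 442 times the 75th percentile in c-JunΔLysM macrophages, against 149 to 249 in wild-type ones. Of these markers 11 of 11 were above background on every array. Without Itga6, the brightest of them, the sums were 229 and 254, against 162, 83.5 and 118 on wild-type 5, 11 and 14. Higher without overlap were 7 of the 11 markers, beside 13.3% of all genes. Gata6, Timd4, Selp and Naip1 overlapped between groups, and Naip1 was lower (-0.21). Relative to the wild-type mean, the median of that list was 1.09 and 1.40 on the c-JunΔLysM arrays, and 0.83, -1.10 and -0.15 on wild-type 5, 11 and 14. F5, Serpinb2 and Thbd were lowest on wild-type 11, where this list was lowest. F3 and F10 were lowest on c-JunΔLysM 9, where the list was highest. F5 was highest on wild-type 5. F13a1 and Plau were lowest on c-JunΔLysM 1, F7 on wild-type 14 and Plaur on wild-type 5. No gene can be tied to a list on 5 arrays, and no such relation was tested. How many of all genes were lowest or highest on wild-type 11 was not counted. Small peritoneal macrophage and monocyte markers had medians of -0.64 and -0.73 on the c-JunΔLysM arrays, and of -0.26, 0.33 and -0.56 on wild-type 5, 11 and 14. Plau, F7 and Plaur were highest on wild-type 11, where that median was highest. Plaur was only 0.02 lower on wild-type 14, where the median was the lowest of the wild-type arrays. The small peritoneal macrophage list summed to between 90.0 and 91.7 in c-JunΔLysM macrophages and to between 96.1 and 170 in wild-type ones, with 7 of its 8 markers above background on every array. Without Mgl2, its brightest marker, sums were 30.0 and 25.8 in c-JunΔLysM macrophages, against 76.4, 74.3 and 45.0 on wild-type 5, 11 and 14. Of its 7 measured markers 3 were lower without overlap and 1, Irf4, was higher without overlap (1.19), beside 20.2% and 13.3% of all genes.

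Mesothelial and stromal markers summed to 4.25 and 4.66 in c-JunΔLysM macrophages, against 7.32 to 14.6 in wild-type ones, with all 11 measured markers lower. From 10 to 11 of the 12 were above background on the c-JunΔLysM arrays and from 10 to 12 on the wild-type ones, and Upk3b was above background on wild-type 11 alone. That list, too, was highest on wild-type 11. Cdh5, Tek, Tie1 and Emcn, 4 of the 8 endothelial markers, were above background on no array, and the list summed to between 7.52 and 8.15 in c-JunΔLysM macrophages and to between 6.98 and 8.68 in wild-type ones. Kdr made up most of that sum, and without it the sums were 0.880 and 1.03 in c-JunΔLysM macrophages and 0.501 to 0.668 in wild-type ones, with Pecam1 higher (0.88) and Esam lower (-1.21) without overlap. Megakaryocyte and platelet markers, relevant because platelets carry F5 and F13a1, summed to 4.34 and 2.37 in c-JunΔLysM macrophages and to between 2.88 and 6.84 in wild-type ones without Pf4. Pf4, left out of the fit for a flagged spot, alone had 384 and 317 in c-JunΔLysM macrophages, against 461, 72.2 and 359 on wild-type 5, 11 and 14. From 7 to 9 of these 10 markers were above background on the c-JunΔLysM arrays and 8 or 9 on the wild-type ones, and Gp9 was above background on no array. B cell markers had a median of 2.23 and 2.78 relative to the wild-type mean on the c-JunΔLysM arrays, and of 0.44, 0.11 and -0.54 on wild-type 5, 11 and 14. They summed to 326 and 476 in c-JunΔLysM macrophages and to between 49.9 and 96.3 in wild-type ones, with 9 of 9 markers above background on every array except wild-type 14, where Pax5 was not. Erythroid markers summed to 10.7 and 22.9 in c-JunΔLysM macrophages and to between 0.58 and 1.41 in wild-type ones. T and NK cell markers summed to 40.8 and 53.9 in c-JunΔLysM macrophages and to between 9.36 and 26.1 in wild-type ones, but without Cd2 to 7.33 and 10.3 in c-JunΔLysM macrophages, against 3.34, 16.2 and 3.70 on wild-type 5, 11 and 14.

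**Figure D4:**
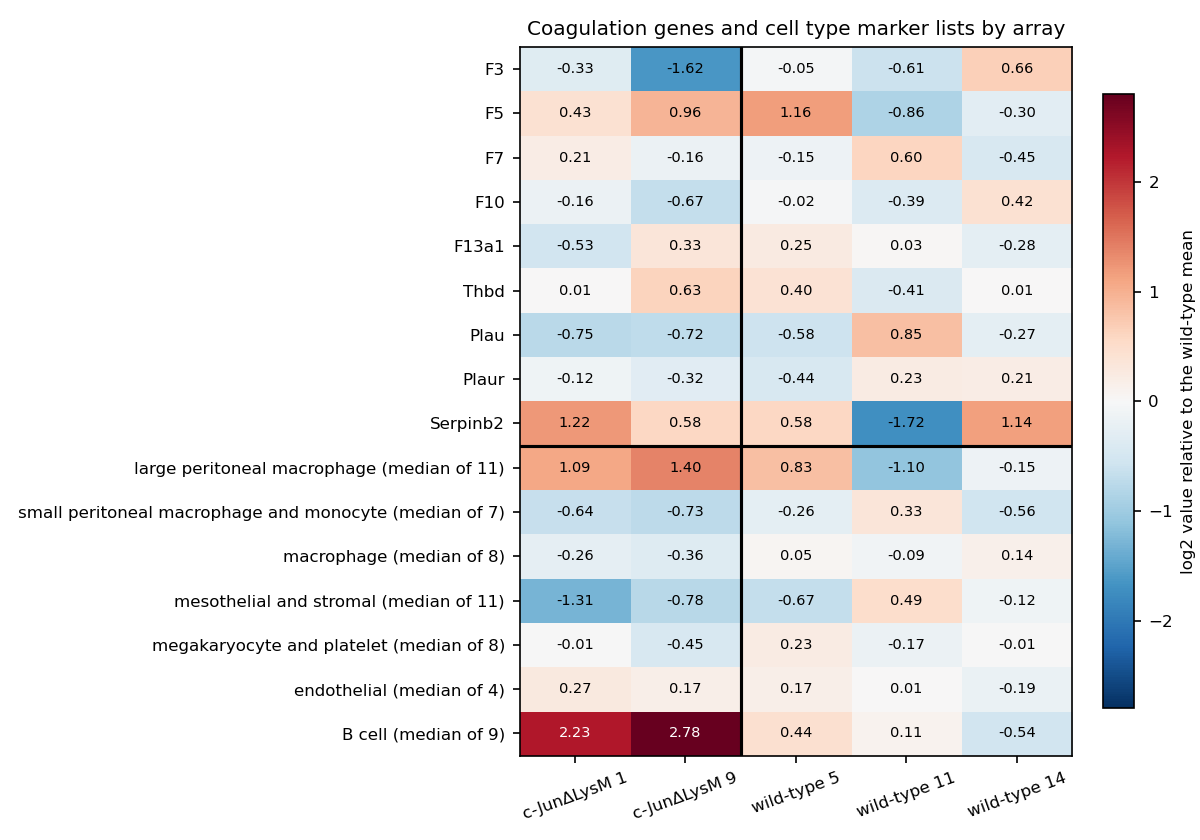
Values of the 9 genes (upper rows) and medians of 7 marker lists (lower rows) on each array, as log2 relative to the wild-type mean. Red is above and blue below that mean. Wild-type 11 is lowest for Serpinb2, F5, Thbd and the large peritoneal macrophage list, and highest for Plau, F7, the small peritoneal macrophage list and the mesothelial list. For Plaur wild-type 11 is highest by 0.02. F3 and F10 are lowest on c-JunΔLysM 9, where the large peritoneal macrophage list is highest.

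The rest of the pathway was followed through 5 further lists, and 0 of their genes passed the adjusted threshold. Of 12 other coagulation factor genes 3 were measured, and F2 (prothrombin), F8, F11, F12, F13b, Kng1 and the fibrinogen genes Fga, Fgb and Fgg were too dim. Vwf, the platelet-binding von Willebrand factor, was at -1.64 and -2.07 in c-JunΔLysM macrophages, against -1.55, -1.30 and -1.26 in wild-type ones (difference -0.49, SE 0.20, limma adjusted p = 0.426), so its groups did not overlap. F9, factor IX, differed by 0.28 and Klkb1, which encodes plasma prekallikrein, by 0.01, both with overlapping groups (0.12 and -0.21 without wild-type 11).

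Among inhibitors and the protein C system 7 of 12 genes were measured, 3 higher and 4 lower, with a median of -0.36. That median was -0.13 without wild-type 11, 0.070 without c-JunΔLysM 9 and 0.28 within slide 1, so it kept neither its size nor its sign. Serpinc1, which encodes antithrombin, was at -2.09 and -0.86 in c-JunΔLysM macrophages, against -2.66, -2.66 and -2.32 in wild-type ones. Both c-JunΔLysM arrays were higher, c-JunΔLysM 9 by far (difference 1.07, SE 0.40, limma adjusted p = 0.401), and groups lay apart in this direction for 13.3% of all genes. Serpina10, the inhibitor of factor X that works with protein Z, was at -2.92 and -3.26 in c-JunΔLysM macrophages, against -2.38, -2.78 and -2.12 in wild-type ones (difference -0.67, SE 0.25, limma adjusted p = 0.410). Tfpi, the inhibitor of tissue factor and factor VII, differed by 0.59 with overlapping groups (SE 0.41, limma adjusted p = 0.574), and by 0.26 without wild-type 11. F2r, which encodes the thrombin receptor PAR1 and was the single measured gene of 4 protease-activated receptors, differed by -0.35 (SE 0.57). It was highest on wild-type 11, and without that array the F2r difference was 0.19. All 5 genes of the vitamin K cycle and of factor V transport were measured with overlapping groups, 1 higher and 4 lower, with a median of -0.08 (-0.25 without wild-type 11, 0.066 without c-JunΔLysM 9 and 0.13 with median centring). Among them Mcfd2, which helps to carry factor V out of the endoplasmic reticulum, differed by -0.14, Ggcx, the carboxylase that vitamin K serves, by -0.18, and Vkorc1 by 0.15. Without wild-type 11 these differences were -0.25 for Mcfd2, -0.42 for Ggcx and -0.04 for Vkorc1.

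Of 17 other genes of plasminogen activation and fibrinolysis 12 were measured, 6 higher and 6 lower in c-JunΔLysM macrophages, with a median of -0.13. That median was -0.43 without wild-type 11, -0.073 without wild-type 5, 0.081 with median centring and 0.015 over probes above background on all arrays. The groups did not overlap for 5, all lower, where 20.2% of all genes were lower without overlap. Itgav, the integrin chain that binds vitronectin, was at -0.58 and -0.70 in c-JunΔLysM macrophages, against -0.21, -0.16 and 0.09 in wild-type ones (difference -0.55, SE 0.16, limma adjusted p = 0.332). Plat, the tissue-type plasminogen activator, was at -4.12 and -6.17 in c-JunΔLysM macrophages, against -3.62, -3.26 and -3.27 in wild-type ones (difference -1.76, SE 0.63, limma adjusted p = 0.387), but it was not above background on c-JunΔLysM 9, so the size of that difference rests in part on a value at background. Plg, plasminogen itself, was above background on neither c-JunΔLysM array and on 2 of 3 wild-type arrays. Its measured means were -6.12 in c-JunΔLysM and -4.70 in wild-type macrophages (limma adjusted p = 0.393). With c-JunΔLysM values raised, where lower, to the lowest signal above background of any probe on that array, the wild-type mean was 1.41-fold higher. That mean includes wild-type 14, where Plg was not above background, so 1.41 is no strict lower bound. The other non-overlapping genes, named after their values were seen, were Anxa2, the annexin that docks plasminogen and its activator at the cell surface (-0.74), and Plgrkt, a plasminogen receptor (-0.33).

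**Figure D5:**
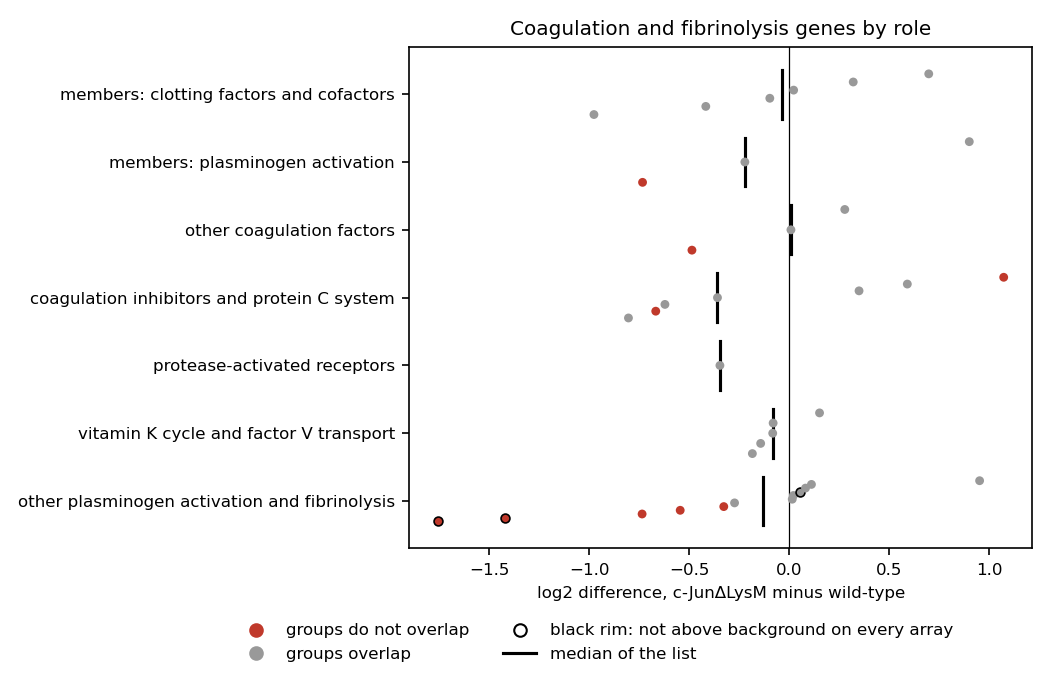
Log2 difference between genotypes, c-JunΔLysM minus wild-type, of each measured coagulation or fibrinolysis gene, by role. Red points are genes whose groups do not overlap, black rims mark genes not above background on every array, and vertical bars are list medians. The 5 red points of other plasminogen activation genes all lie below 0, and the lowest pair, with black rims, are Plat and Plg, whose values at background give no exact size.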

How the data were processed

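The authors' deposited scanner files give spot intensity from Feature Extraction 11.5.1.1 (per the file headers), background-subtracted, with no scaling between arrays. The same deposited files hold an other kind of value, 0 or 1 flags, used for filtering. A deposited table of group means was not used. Log2 of the processed intensity minus log2 of each array's 75th percentile over 59305 non-control spots was the value. Flagged spots were left out, spots of 1 probe averaged, and probes above background on at least 2 arrays kept (32821, of which 256 were lost to flags). Accessions were named through RefSeq of GRCm38.p6 (28026 of 55681 probes), each gene taking its brightest probe and unnamed probes kept. limma 3.58.1 (R 4.3.3, lmFit and eBayes, 2-sided) compared 27938 genes, with Benjamini-Hochberg adjustment over all, and was tested on simulated data. Members and lists were chosen with earlier results of these data known. All 9 members were named, with up to 3 genes of smallest p from each other list. The files lack the mean spot signal, so normexp alternatives used the median. Alternatives varied background, scaling, filters, probes, slide, weights and arrays. Marker sums without the brightest gene, and differences of other pathway genes without wild-type 11, were added after seeing the data.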

Additional observations from a re-analysis of the deposited data

How the results depend on the processing

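For the 9 genes, 0 had an adjusted p below 0.05 under any alternative with a test. The lowest limma adjusted p over alternatives was 0.350 for F3 and 0.285 for its second probe, both with array weights. F3, F10, Plau and Serpinb2 kept their sign under every alternative run. The sign of F5, Thbd and Plaur turned within slide 1 alone (-0.73, -0.39 and 0.32), as did that of the second F5 probe (-1.05, and -0.11 with array weights). F7, near 0, turned within slide 2 (-0.24), and its second probe did so too (-0.27). With single arrays left out, the difference ranged from -0.20 to 0.32 for F7 (-0.18 to 0.30 on its second probe) and from -0.53 to 0.33 for F13a1 (-0.77 to 0.40). F13a1 also turned with quantile normalization (0.041), with median centring (0.11, second probe 0.029) and within slide 2 (0.45, second probe 0.55). Leaving out wild-type 5 gave -0.05 for F7 (second probe -0.07), leaving out wild-type 14 gave -0.20 (-0.18) and leaving out c-JunΔLysM 1 gave -0.16 (-0.18). F13a1 was at 0.03 without wild-type 5 and 0.33 without c-JunΔLysM 1, with 0.40 on its second probe.

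The median difference of all genes moved from -0.09 to 0.12 with median centring, where that of the 9 genes was 0.11. Under that setting 187 genes passed the adjusted threshold, and 2618 were higher and 697 lower at an unadjusted p below 0.05, beside 1572 and 1823. Array weights gave 1 gene past the threshold and 2930 lower, and within slide 2 there were 1003 higher and 833 lower. With single arrays left out, 659 to 1993 genes were higher and 1029 to 2512 lower, the groups did not overlap for 12289 to 17014 genes (9372 with all arrays), and for 1 to 5 of the 9. Fewer arrays leave more genes without overlap by construction. Elsewhere the cause was not tested. The deposited table of means holds none of the 9 genes and was not run. No paired analysis was possible because the titles give the groups no shared replicate numbers. The fit with slide as a block, which both genotypes share, kept the sign of all 9 genes (F3 -1.06, limma adjusted p = 0.598).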
